A study of Mus musculus with 71 samples.

Results

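Astrocytes hold much of the brain's machinery for moving potassium, water and bicarbonate, and 9 genes that encode it were followed through the hippocampal translatome of 71 mice. The 9 genes were chosen by function: the gap junction connexins Gja1 and Gjb6, the potassium channel Kcnj10, the sodium pump subunit Atp1b2, the bicarbonate cotransporter Slc4a4, the water channel Aqp4, its neighbours in the astrocyte endfoot Mlc1 and Hepacam, and the receptor Gpr37l1. They were given as a list of symbols with no threshold on a measured value, and all 9 were found among the 57010 genes of the count table. All 9 also passed the filter for the tests, which kept the 30141 genes whose counts summed to 10 or more. The mice were wild-type C57BL/6J males, 3 weeks old when the diets began and kept on them for 12 weeks. NC ad lib mice had normal chow at all times and HFS ad lib mice had a high fat-high sucrose diet at all times, whereas HFS TRF mice had the same high fat-high sucrose diet but, in the last 4 weeks, received it only from zt11 to zt1, where zt is the hour since lights on. In the first experiment, hippocampi were taken at zt3 from home cage mice (HC zt3) or 1 h after training in an object recognition memory task (ORM+1 h). In the second they were taken at zt15 from home cage mice (HC zt15) or 12 h after the same training (ORM+12 h). Each of the 12 groups of diet and condition held 6 mice, except HFS TRF HC zt15 with 5. From each hippocampus, mRNA on ribosomes was precipitated with an antibody against the phosphorylated form of ribosomal protein S6 (pS6-TRAP) and sequenced, so the values describe mRNA on ribosomes that carry this mark, a mark known to increase with cell activity.

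As background, astrocytes are joined by gap junctions into a network in which ions and small metabolites spread from cell to cell. Potassium released by firing neurons is taken up through inward rectifier channels and the sodium pump, passes along this network and leaves at endfeet on blood vessels, where water channels and adhesion proteins are anchored. Bicarbonate transport sets the pH of the cell and of the cleft at the same time. In the hippocampus these functions are known for clearing potassium during synaptic activity and for shaping the extracellular space.

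The proteins divide by role. Gja1 and Gjb6 encode connexin 43 and connexin 30, the main connexins of astrocytes. Kcnj10 encodes Kir4.1, the inward rectifier that sets the resting potential of astrocytes, and Atp1b2 encodes the glial beta subunit of the sodium/potassium pump. Slc4a4 encodes an electrogenic sodium bicarbonate cotransporter. Aqp4 encodes aquaporin-4, the water channel of the endfeet, while Mlc1 encodes a membrane protein of the same endfeet that Hepacam, a cell adhesion molecule, holds in place. Gpr37l1 encodes an astrocyte G protein-coupled receptor. In the GRCm39 annotation the genes lie on 8 chromosomes, with Kcnj10 (172168765 to 172201652) and Gpr37l1 (135087972 to 135095419) both on chromosome 1 but far apart, and each is annotated as protein coding.

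Since the 9 genes moved together between mice, as described below, the 250 bases before the start of each gene's canonical transcript (Ensembl) were read for 4 short motifs, on both strands. The letters AGGTCA, a half-site of nuclear receptors, and CACGTG, an E-box, were in none of the 9 windows and in 12.9% and 5.88% of the windows of 29789 genes. TGACGTCA, the cyclic AMP response element, was in none of the 9 and in 1.39% of all. The AP-1 letters TGANTCA, in 5.77% of all windows, were found before Gja1 alone, and this 30-base stretch is shown because it holds that match, given in capitals, 43 to 37 bases before that start on the plus strand at chr10:56253366-56253395. For Gja1, Aqp4, Atp1b2, Hepacam and Mlc1 the annotated gene begins upstream of its canonical transcript, so part or all of the window, and for Gja1 the match itself, lies inside the gene.
Gja1: ctccttccagtTGAGTCAgtggcttgaaac
Windows free of any annotated exon are shown for Gjb6, the gene with the largest training difference (minus strand, chr14:57371088-57371337, 55.6% G or C), and for Gpr37l1, the receptor (minus strand, chr1:135095420-135095669, 52.0% G or C), both written 5′ to 3′ toward the start and all in lower case because none of the motifs matched.
Gjb6: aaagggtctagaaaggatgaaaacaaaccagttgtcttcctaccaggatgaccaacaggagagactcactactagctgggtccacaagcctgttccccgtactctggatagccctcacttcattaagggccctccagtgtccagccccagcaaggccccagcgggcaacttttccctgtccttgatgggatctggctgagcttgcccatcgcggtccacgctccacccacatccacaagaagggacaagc
Gpr37l1: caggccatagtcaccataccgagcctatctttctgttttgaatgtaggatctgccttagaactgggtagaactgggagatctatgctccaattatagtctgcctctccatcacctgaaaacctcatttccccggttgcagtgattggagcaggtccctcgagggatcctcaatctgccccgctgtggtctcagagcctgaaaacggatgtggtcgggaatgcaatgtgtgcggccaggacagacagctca
The sequences are those of the GRCm39 genome. A match is only a match of letters, and its absence says only that these letters were not in this window.

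Library totals ran from 34698914 to 62758570 assigned counts. Levels are in CPM, a gene's count relative to its library's size, with sizes adjusted by the trimmed mean of M values (TMM). Every member was counted deeply, the lowest raw count of any member in any mouse being 209, for Gjb6. The summed level of 12 other astrocyte markers ranged from 1501 to 7046 CPM over the mice, that of 8 neuron markers from 7836 to 10197 CPM, and none of these markers was at 0 in any group. Markers of the choroid plexus, a tissue beside the hippocampus, ranged from 97.4 to 18723 CPM. Within groups this sum moved little with the members: over 71 mice, after taking out each group's mean, the correlation between the mean log2 level of the 9 members and the log2 choroid sum was -0.06. Differences between groups are not covered by this correlation, and the values of the choroid plexus markers for them are given below. One mouse, in HFS ad lib HC zt15, had 472 CPM of 7 summed microglia markers, while the overall median was 74.2 CPM. In the HFS ad lib HC zt3 group, replicates 5 and 6 stood apart from the other 4 for every member. Tests of the members that rest on this group are given with and without them. Descriptions such as the order of the groups and the correlations over mice include them.

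Per kilobase of exon, Atp1b2, Gpr37l1 and Mlc1 were the highest 3 of the 9 genes, in this order, in all 12 groups. Averaged over all mice, Atp1b2 had the highest level at 45.2 CPM per kb, followed by Gpr37l1 at 33.6, Mlc1 at 17.4, Kcnj10 at 11.4 and Hepacam at 11.02 CPM per kb. Slc4a4 at 6.05, Gjb6 at 5.48, Aqp4 at 5.04 and Gja1 at 5.01 CPM per kb lay close together at the lower end. Both the pump subunit and the receptor thus lay well above the connexins and the water channel. Under NC ad lib the top 5 kept their order between HC zt3 and ORM+1 h, whereas the lower 4 changed places: Gjb6 was the lowest at HC zt3 with 1.90 CPM per kb and was the seventh at ORM+1 h with 8.31, while Slc4a4 went from the sixth at 3.33 to the lowest at 7.29 CPM per kb. Over the 71 mice, Atp1b2 had the narrowest range, 2.69-fold from the lowest to the highest mouse, and Gjb6 the widest, 12.2-fold.

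Ordered by mean level over the 12 groups, all 9 members had their lowest group in NC ad lib HC zt3. The 3 HC zt3 groups were the lowest 3 for 7 members, while Aqp4 and Gja1 had HFS ad lib ORM+12 h in the third place. NC ad lib ORM+1 h was the highest group for 7 members, the exceptions being Slc4a4, highest in HFS TRF ORM+1 h, and Hepacam, highest in HFS TRF HC zt15. Neighbours in these orders never stood apart: in all 99 neighbouring pairs the ranges overlapped and the gap between the means was smaller than the larger of their SDs.

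**Figure D1:**
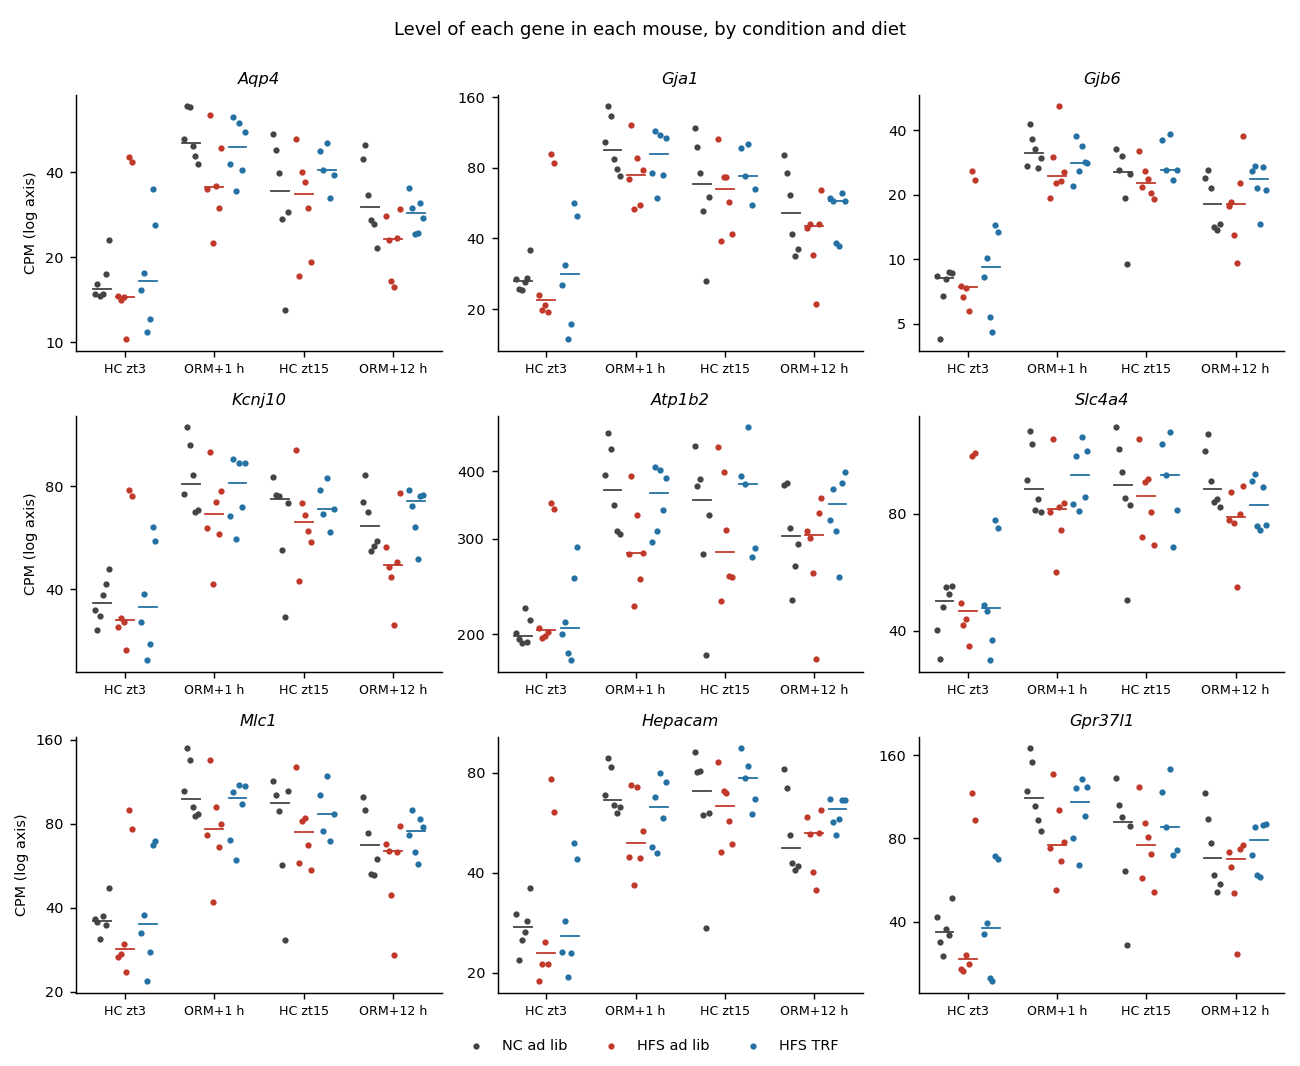
Level of each of the 9 genes in every mouse (vertical axis, CPM on a log axis), 1 panel per gene, with the 4 conditions along the horizontal axis and the 3 diets in colour; points are mice and bars are group medians. The medians of the HC zt3 groups are the lowest for every gene. Replicates 5 and 6 of the HFS diets lie above their HC zt3 group mates, and in HFS ad lib they lie among the trained mice. Some mice taken at zt15, such as NC ad lib HC zt15 replicate 5, lie as low as HC zt3 mice for some genes.

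The first comparison set mice 1 h after training beside home cage mice taken at about the same hour of the day. Since the latter stayed in the home cage, training cannot be told apart from the handling and the change of place that came with it. Mice on NC ad lib had all 9 members higher at ORM+1 h than at HC zt3, by log2 0.89 to 2.13, and all 9 passed the test, against a background of 4.03% of all tested genes called higher (edgeR quasi-likelihood test with Benjamini-Hochberg adjustment over 30141 genes, as for all adjusted p-values here). For all 9 the lowest trained mouse lay above the highest home cage mouse, which was so for 3.19% of all genes. More astrocytes in the sample, more of these mRNAs per astrocyte and more marked ribosomes per astrocyte cannot be told apart in such bulk material.

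Among the connexins, Gjb6 ranged from 4.24 to 8.67 CPM (median 8.18) in the HC zt3 mice and from 26.6 to 42.9 CPM (median 31.2) in the ORM+1 h mice, a 4.37-fold difference and the largest of the 9 (log2 fold change 2.13 ± 0.30 (SE), adjusted p = 8.96e-07). Gja1 ranged from 24.1 to 35.9 CPM (median 26.5) before and from 74.0 to 146 CPM (median 95.2) after training (log2 fold change 1.92 ± 0.33 (SE), adjusted p = 4.37e-05). Both connexins therefore rose more than 3-fold. For potassium handling, Kcnj10 ranged from 30.5 to 45.9 CPM (median 36.5) at HC zt3 and from 67.0 to 119 CPM (median 81.0) at ORM+1 h (log2 fold change 1.22 ± 0.23 (SE), adjusted p = 1.58e-04). Atp1b2 ranged from 193 to 223 CPM (median 199) in home cage mice, a narrow band, and from 307 to 471 CPM (median 369.6) in trained mice (log2 fold change 0.89 ± 0.17 (SE), adjusted p = 1.95e-04). The pump subunit, the most abundant of the genes, thus had the smallest rise, 1.86-fold.

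The water channel and its partners rose to similar degrees. Aqp4 ranged from 14.6 to 22.9 CPM (median 15.4) at HC zt3 and from 42.9 to 68.4 CPM (median 50.8) at ORM+1 h (log2 fold change 1.70 ± 0.29 (SE), adjusted p = 4.26e-05). Mlc1 ranged from 30.8 to 47.0 CPM (median 36.0) and from 85.5 to 149 CPM (median 98.4) in the same groups (log2 fold change 1.56 ± 0.28 (SE), adjusted p = 1.03e-04). Hepacam, which anchors Mlc1, ranged from 21.9 to 36.0 CPM (median 27.5) and from 60.6 to 88.5 CPM (median 66.1) (log2 fold change 1.35 ± 0.25 (SE), adjusted p = 1.20e-04). The 3 endfoot genes thus rose 2.54- to 3.24-fold. For the bicarbonate cotransporter Slc4a4 the ranges were 33.9 to 52.1 CPM (median 47.8) and 80.8 to 131 CPM (median 92.4) (log2 fold change 1.13 ± 0.22 (SE), adjusted p = 3.04e-04). For the receptor Gpr37l1 they were 30.0 to 48.6 CPM (median 36.7) and 85.2 to 169 CPM (median 112) (log2 fold change 1.67 ± 0.30 (SE), adjusted p = 9.81e-05). In each of these genes every trained mouse exceeded every home cage mouse.

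In HFS TRF mice the same comparison also called all 9 members higher, by log2 0.70 to 1.64, beside 2.24% of all genes. The groups did not overlap for 4 of the 9, beside 2.14% of all genes. Gjb6 again rose most, from a range of 4.59 to 14.4 CPM (median 9.18) to one of 21.9 to 37.4 CPM (median 28.2) (log2 fold change 1.64 ± 0.29 (SE), adjusted p = 1.53e-04), and Gja1 from 14.9 to 56.4 CPM (median 28.1) to 59.3 to 115 CPM (median 91.6) (log2 fold change 1.48 ± 0.33 (SE), adjusted p = 0.00304). Neither connexin's groups overlapped. Aqp4 had 10.9 to 34.9 CPM (median 16.5) at HC zt3 and 34.4 to 62.5 CPM (median 49.2) at ORM+1 h (log2 fold change 1.34 ± 0.29 (SE), adjusted p = 0.00238), its highest home cage mouse lying just above its lowest trained mouse. Gpr37l1 had 24.3 to 69.1 CPM (median 37.8) and 64.1 to 131 CPM (median 109) (log2 fold change 1.23 ± 0.30 (SE), adjusted p = 0.00875). Mlc1, with 21.8 to 69.5 CPM (median 35.0) and 59.2 to 109.8 CPM (median 99.0), was nearest to the threshold (log2 fold change 1.09 ± 0.28 (SE), adjusted p = 0.0151), and leaving out replicate 1, 3 or 4 of HFS TRF HC zt3 took it past the threshold of 0.05. The remaining 4 rose as follows, all on the log2 scale with SE: Hepacam 1.00 ± 0.25, Kcnj10 0.98 ± 0.23, Slc4a4 0.96 ± 0.22 and Atp1b2 0.70 ± 0.17, with adjusted p from 0.00527 to 0.00963. Slc4a4 and Atp1b2 were the other two members without overlap.

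In HFS ad lib mice 1 of the 9 members passed the test, beside 0.74% of all genes called higher, and for none of the 9 did the groups fail to overlap (0.819% of all genes did). With only the compared groups in the fit, 0 of the 9 passed, beside 0.597% of all genes called in either direction. That member was Gjb6, with 7.51, 6.63, 7.32, 5.74, 25.7 and 23.3 CPM in the 6 HC zt3 mice and 19.2 to 51.7 CPM (median 24.3) in the ORM+1 h mice (log2 fold change 1.17 ± 0.29 (SE), adjusted p = 0.0194). The first 4 home cage mice lay far below every trained mouse and the last pair among them. Gja1 had 22.9, 19.9, 20.9, 19.5, 91.8 and 83.8 CPM in the home cage mice and 53.5 to 122 CPM (median 74.7) in the trained mice (log2 fold change 0.86 ± 0.32 (SE), adjusted p = 0.209). Aqp4 had 14.5, 14.1, 14.5, 10.3, 45.3 and 43.6 CPM and, after training, 22.5 to 63.5 CPM (median 35.4) (log2 fold change 0.73 ± 0.28 (SE), adjusted p = 0.234). The same 2 mice were high in both genes. Kcnj10 had 31.0, 32.9, 32.0, 26.7, 77.9 and 74.8 CPM in home cage and 41.4 to 100.4 CPM (median 66.1) in trained mice (log2 fold change 0.57 ± 0.23 (SE), adjusted p = 0.237), and Atp1b2 had 205, 197, 198, 202, 349 and 339.9 CPM and 226 to 393 CPM (median 282) (log2 fold change 0.25 ± 0.17 (SE), adjusted p = 0.565). The other 4 differed by log2 0.35 (Slc4a4) to 0.84 (Mlc1), with adjusted p of 0.135 and above. Without adjustment, 7 of the 9 had p under 0.05.

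**Figure D2:**
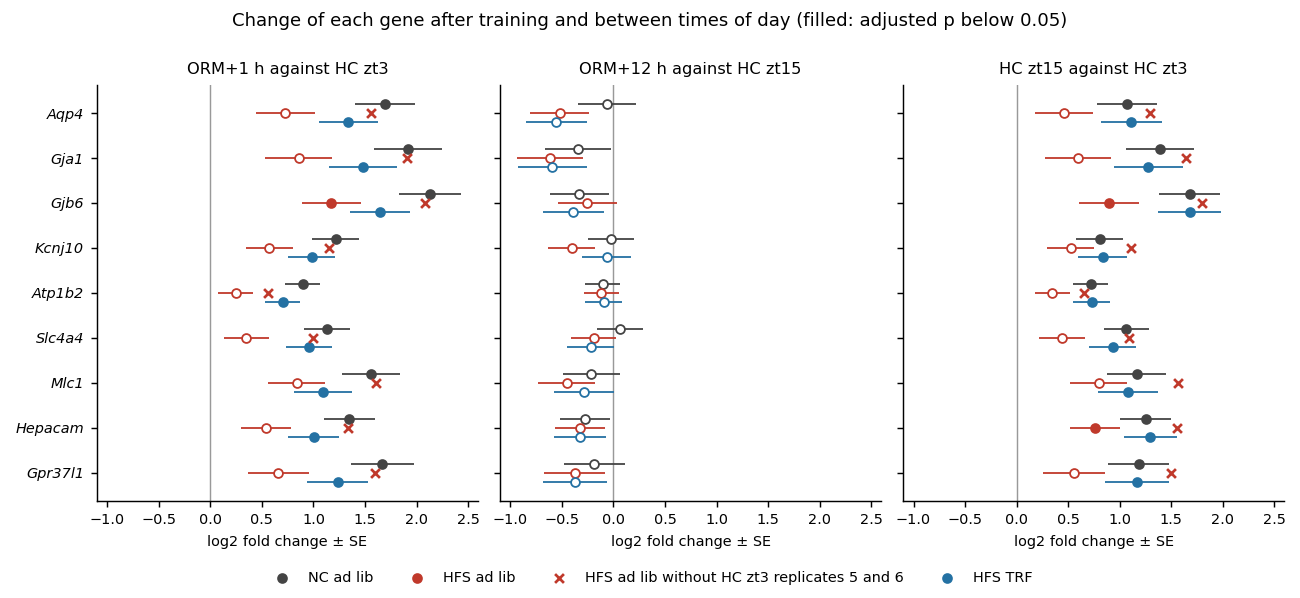
Difference of each of the 9 genes (horizontal axis, log2 fold change with bars of 1 SE) for training at 1 h, training at 12 h and time of day, by diet; filled points had an adjusted p below 0.05, and crosses give HFS ad lib without HC zt3 replicates 5 and 6. At 1 h and for the time of day all NC ad lib and HFS TRF points are filled, as are 1 and 2 of the HFS ad lib points, and the crosses lie to the right of those points.

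Replicates 5 and 6 of HFS ad lib HC zt3 were at the level of trained mice for all 9 members. The mean of the pair was 1.72 (Atp1b2) to 4.22 (Gja1) times the mean of replicates 1 to 4, with a median of 3.20 times over the members. In HFS TRF HC zt3 the same numbered replicates were 1.403 to 2.40 times the other 4, and in NC ad lib HC zt3 0.999 to 1.34 times. In each diet, all of replicates 1 to 4 lay below every trained mouse of that diet for all 9 members. These 4 were singled out after the values were seen, and no share of all genes is given for this count. With all 6 home cage mice kept, the members free of overlap numbered 9 for NC ad lib, 4 for HFS TRF and 0 for HFS ad lib. For both HFS diets the full separation thus came from setting replicates 5 and 6 aside. The summed astrocyte markers, which hold none of the 9, also set the HFS ad lib pair apart. They were at 5157 and 4674 CPM in the pair and at 1614 to 1851 CPM in the 4 group mates. The trained HFS ad lib mice had 2909 to 6125 CPM. The neuron sums of the pair were 9036 and 9073 CPM, beside 9104 to 10131 CPM in the other 4. Of 4 activity genes picked after their values were seen, Arc was at 303 and 262 CPM in the pair, 119 to 169 in the other 4 and 353 to 621 in the trained mice, and Fos at 25.1 to 29.4, 6.56 to 10.5 and 48.9 to 87.8 CPM. Egr4, in contrast, was at 39.8 to 43.4 CPM in the pair, inside the 35.2 to 50.9 CPM of the other 4, and at 112 to 164 CPM in the trained mice. Egr2 was at 2.87 to 3.91 CPM in the pair, 1.25 to 3.42 in the other 4 and 19.4 to 36.8 in the trained mice. What set the pair apart was not tested, and the labels give no batch.

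Leaving this pair out, a choice made after their values were seen, 8 of the 9 members passed the test in HFS ad lib mice (edgeR). Since the pair was picked for high values of these same genes, leaving it out raises the difference. The counts and adjusted p-values of this fit are therefore descriptive and not a test of the members. Of all genes, 1033 or 3.43% were called in either direction, in place of 371. Gjb6 then differed by log2 2.08 ± 0.30, adjusted p = 1.98e-06, and Gja1 by 1.91 ± 0.33, adjusted p = 5.51e-05. Aqp4 differed by 1.55 ± 0.29, adjusted p = 2.49e-04. All 3 lay well above their values with all 6 mice, 1.17, 0.86 and 0.73. Atp1b2, at 0.56 ± 0.18, adjusted p = 0.0721, was the member that did not pass. With replicates 5 and 6 of HC zt3 left out in all 3 diets, the counts were 8 of 9 for HFS ad lib and 9 of 9 for the other diets. The shares of all genes called in either direction were 3.25% for HFS ad lib, 6.07% for NC ad lib and 3.05% for HFS TRF.

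**Figure D3:**
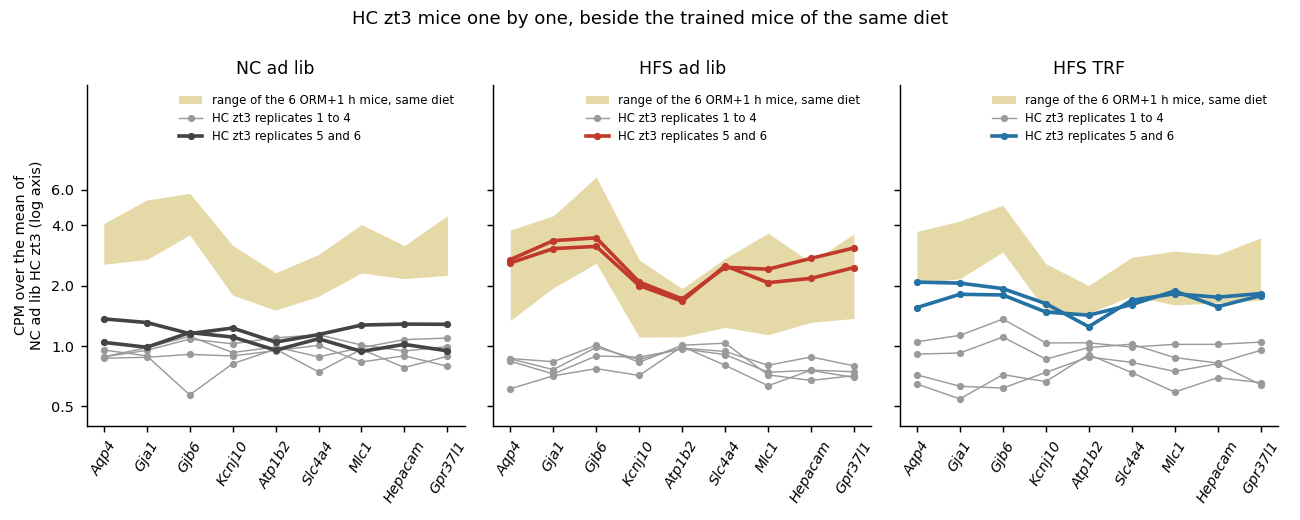
Level of each gene in each HC zt3 mouse over the mean of NC ad lib HC zt3 (vertical axis, ratio on a log axis), 1 panel per diet, with replicates 5 and 6 in colour, replicates 1 to 4 in grey and the range of the 6 ORM+1 h mice of the same diet as a band. In HFS ad lib the pair lies within the band for 8 of the 9 genes and 1 mouse of it above the band for Hepacam, while replicates 1 to 4 lie below the band in every panel. The split into replicates 1 to 4 and 5 and 6 was made after the values were seen.

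Whether the difference between trained and home cage mice varied with the diet was tested directly, with the difference between the diets' training differences. The HFS ad lib difference was smaller than that of NC ad lib for all 9 members, by log2 0.65 to 1.06, yet none passed (adjusted p 0.711 to 0.832, 8 of 9 with unadjusted p under 0.05). Over all genes the share called was 0%, with 1884 genes at unadjusted p under 0.05, and DESeq2 also called 0 of the 9. For Gja1 the difference between diets was -1.06 ± 0.45 and for Gpr37l1 -1.01 ± 0.42 on the log2 scale. Without replicates 5 and 6 of HFS ad lib HC zt3 it lay between -0.34 and 0.05 for the 9 members. That pair was picked for its high values of these genes, so leaving it out necessarily raised the HFS ad lib difference. What made the diets differ was therefore not tested by this fit. At ORM+1 h, which does not involve the pair, HFS ad lib minus NC ad lib was log2 -0.51 to -0.18, with 0 of 9 called. The HFS TRF difference exceeded that of HFS ad lib by log2 0.26 to 0.62 for all 9 with all mice, again with 0 of 9 called by edgeR or DESeq2, 0 of 9 at unadjusted p under 0.05 and 0% of all genes called. Without the pair it lay between -0.51 and 0.15. With replicates 5 and 6 of HC zt3 left out in all 3 diets it lay between -0.04 and 0.32. The difference of HFS ad lib minus NC ad lib then lay between -0.30 and 0.006. Both tests of diet share the HFS ad lib mice.

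At 12 h after training no member differed from the home cage mice of zt15 by the test, in any diet. Mice on NC ad lib had differences of log2 -0.34 (Gja1) to 0.06 (Slc4a4), those on HFS TRF of -0.59 (Gja1) to -0.07 (Kcnj10) and those on HFS ad lib of -0.61 (Gja1) to -0.12 (Atp1b2). edgeR called 0 of 9 in each diet, 0 of 9 had an unadjusted p under 0.05, and DESeq2 also called 0 of 9. A fit of only the compared groups called 1, Aqp4 in HFS TRF, beside 2.22% of all genes. With all groups in the fit, the share of all genes called in either direction was 2.46% for HFS TRF, 0.179% for HFS ad lib and 0.209% for NC ad lib. Gja1, the member with the lowest estimate in each diet, showed how wide the groups were. On NC ad lib it ranged from 26.5 to 118 CPM (median 68.0) at HC zt15 and from 33.8 to 91.1 CPM (median 51.4) at ORM+12 h (log2 -0.34 ± 0.32, adjusted p = 0.637). In HFS ad lib the ranges were 39.0 to 106 CPM (median 65.2) and 21.0 to 64.1 CPM (median 45.1) (log2 -0.61 ± 0.32, adjusted p = 0.318). In HFS TRF the 5 home cage mice had 97.3, 73.5, 101, 55.7 and 65.1 CPM and the trained mice 37.0 to 62.3 CPM (median 57.6) (log2 -0.59 ± 0.33, adjusted p = 0.292). In all 3 diets the groups overlapped.

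Aqp4 in HFS TRF had 47.6, 40.8, 50.6, 32.5 and 39.2 CPM in the 5 HC zt15 mice and 24.2 to 35.0 CPM (median 28.7) at ORM+12 h (log2 -0.55 ± 0.30, adjusted p = 0.267). Gjb6 of NC ad lib had ranges of 9.46 to 32.7 CPM (median 25.5) at HC zt15 and 13.6 to 25.9 CPM (median 17.98) at ORM+12 h (log2 -0.33 ± 0.29, adjusted p = 0.598). Kcnj10, at 33.1 to 85.3 CPM (median 73.2) and 51.7 to 86.3 CPM (median 61.3) in the same groups, differed by log2 -0.02 ± 0.23. The trained groups thus overlapped their home cage groups. One home cage mouse widened that spread: NC ad lib HC zt15 replicate 5 was the lowest of its group for all 9 members, at 13.0 CPM for Aqp4 and 30.7 CPM for Mlc1, close to the lowest HC zt3 mice of that diet. The differences between diets in this comparison ran from log2 -0.46 to 0.07 for HFS ad lib minus NC ad lib (0 of 9 called, 0 of 9 at unadjusted p under 0.05, 0.106% of all genes called) and from -0.13 to 0.34 for HFS TRF minus HFS ad lib (0 of 9, 0 of 9 and 0%), and DESeq2 called 0 of 9 in both.

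Home cage mice taken at zt15, in the dark phase, were set beside home cage mice taken at zt3, in the light phase. These mice come from different experiments, so the time of day and the experiment cannot be told apart, and the HC zt3 mice are the same as in the comparison with training at 1 h. All 9 members of the NC ad lib mice were higher at zt15, by log2 0.72 to 1.68, beside 5.18% of all genes called higher. Their groups overlapped for all but Gjb6, beside 1.54% of all genes without overlap, since replicate 5 of HC zt15 lay low. Gjb6 ranged from 4.24 to 8.67 CPM (median 8.18) at zt3 and from 9.46 to 32.7 CPM (median 25.5) at zt15 (log2 fold change 1.68 ± 0.30 (SE), adjusted p = 1.71e-05). Hepacam ranged from 21.9 to 36.0 CPM (median 27.5) and from 27.3 to 92.2 CPM (median 70.2) (log2 fold change 1.25 ± 0.25 (SE), adjusted p = 1.33e-04). Slc4a4 ranged from 33.9 to 52.1 CPM (median 47.8) and from 48.0 to 133 CPM (median 94.99) (log2 fold change 1.06 ± 0.22 (SE), adjusted p = 3.04e-04). The connexin, the adhesion molecule and the cotransporter had the smallest p-values of the 9. The other 6 rose by log2 0.72 (Atp1b2) to 1.39 (Gja1), Kcnj10 having the largest adjusted p of 0.0102.

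In HFS TRF all 9 were higher at zt15 as well, by log2 0.73 to 1.68, beside 5.95% of all genes, and for 4 of them, Gjb6, Mlc1, Hepacam and Gpr37l1, the groups did not overlap (3.1% of all genes). Gjb6 had 4.59 to 14.4 CPM (median 9.18) at zt3 and, in the 5 mice of zt15, 35.9, 25.9, 38.2, 23.5 and 25.9 CPM (log2 fold change 1.68 ± 0.30 (SE), adjusted p = 2.67e-05). Hepacam had 19.5 to 49.0 CPM (median 25.8) at zt3 and 94.6, 76.8, 83.8, 60.2 and 66.7 CPM at zt15 (log2 fold change 1.30 ± 0.26 (SE), adjusted p = 1.21e-04). For the remaining 7 the log2 differences ran from 0.73 (Atp1b2) to 1.28 (Gja1), with adjusted p from 0.00202 to 0.00898.

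In HFS ad lib 2 of the 9 were called higher at zt15, beside 3.88% of all genes, and none of the 9 was free of overlap (1.24% of all genes were). A fit of only the compared groups called 0 of the 9, beside 5.9% of all genes in either direction. These were Gjb6, with 7.51, 6.63, 7.32, 5.74, 25.7 and 23.3 CPM at zt3 and 19.0 to 31.9 CPM (median 22.6) at zt15 (log2 fold change 0.90 ± 0.29 (SE), adjusted p = 0.0324), and Hepacam, with 18.8, 21.2, 24.7, 21.2, 76.5 and 60.8 CPM and 46.1 to 86.2 CPM (median 63.3) (log2 fold change 0.76 ± 0.24 (SE), adjusted p = 0.033). Mlc1 lay just short of the threshold (log2 fold change 0.79 ± 0.28 (SE), adjusted p = 0.0547). The other 6 were at log2 0.35 (Atp1b2) to 0.59 (Gja1), and 6 of the 9 had an unadjusted p under 0.05. Without replicates 5 and 6 of HC zt3 all 9 passed, by log2 0.66 to 1.80, with Gjb6 at 1.80 ± 0.29, adjusted p = 3.88e-06 and Aqp4 at 1.29 ± 0.29, adjusted p = 9.11e-04. As at 1 h, the pair was picked by the values of these genes, so these adjusted p-values are descriptive. That fit called 3250 of all genes (10.8%) in either direction, beside 3139 with all mice. The difference between the diets' zt15 to zt3 differences ran from log2 -0.80 to -0.28 for HFS ad lib minus NC ad lib (0 of 9 called by edgeR or DESeq2, 1 of 9, Slc4a4, at unadjusted p under 0.05, 0% of all genes called) and from 0.29 to 0.78 for HFS TRF minus HFS ad lib (0 of 9 called by edgeR or DESeq2, 0 of 9 at unadjusted p under 0.05, 0%). Without the pair the first ran from -0.06 to 0.40 and the second from -0.48 to 0.07. With replicates 5 and 6 of HC zt3 left out in all 3 diets they ran from -0.04 to 0.35 and from 0.02 to 0.29.

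Within a condition, no member differed between diets by the test. At HC zt3, HFS ad lib was above NC ad lib by log2 0.29 to 0.77 (0 of 9 called by edgeR or DESeq2, 3 of 9 at unadjusted p under 0.05, 0% of all genes called), and the highest upper bound of the 9 intervals (95%, from the SE) was 1.35. These intervals, here and below, use the normal distribution, so they are slightly narrower than the edgeR test implies. Without replicates 5 and 6 of HFS ad lib the sign turned, to -0.47 to -0.02. HFS TRF was below HFS ad lib by log2 0.09 to 0.45 (0 of 9, 0 of 9 and 0%), which became 0.13 to 0.68 above it without the pair. With replicates 5 and 6 left out in all 3 diets, HFS TRF minus HFS ad lib was -0.04 to 0.17. HFS ad lib minus NC ad lib was then -0.41 to -0.02. At ORM+1 h, HFS ad lib was below NC ad lib by log2 0.18 to 0.51 (0 of 9 called, 1 of 9, Atp1b2, at unadjusted p under 0.05, 0% of all genes called), with intervals reaching from -1.09 to 0.38. HFS TRF was above HFS ad lib by 0.02 to 0.33 (0 of 9, 0 of 9 and 0%). For Atp1b2 the trained HFS ad lib mice ranged from 226 to 393 CPM (median 282), those of HFS TRF from 296 to 407 CPM (median 364) and those of NC ad lib from 307 to 471 CPM (median 369.6). These 3 ranges overlapped.

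In the second experiment, too, no member differed between diets by the test. At HC zt15, HFS ad lib minus NC ad lib was log2 -0.14 to 0.01 (0 of 9 called, 0 of 9 at unadjusted p under 0.05, 0.063% of all genes called), with intervals from -0.77 to 0.55, and HFS TRF minus HFS ad lib was 0.11 to 0.37 (0 of 9, 0 of 9 and 0%), with intervals from -0.38 to 0.95. At ORM+12 h, HFS ad lib minus NC ad lib was -0.57 to 0.07 (0 of 9 called, 1 of 9, Aqp4, at unadjusted p under 0.05), although 2.27% of all genes were called there. The intervals reached from -1.13 to 0.63. Aqp4 ranged from 21.6 to 50.0 CPM (median 30.1) on NC ad lib and from 15.7 to 29.7 CPM (median 23.2) on HFS ad lib (log2 -0.57 ± 0.29, adjusted p = 0.234). HFS TRF minus HFS ad lib was 0.13 to 0.45 (0 of 9, 0 of 9 and 0.00664%), with intervals from -0.36 to 0.91. That of Kcnj10, 0.006 to 0.89, lay just above 0, while the edgeR test gave an unadjusted p of 0.0511 (adjusted p = 0.409). DESeq2 called 0 of 9 in each of these 8 diet comparisons. In every condition both diet comparisons share the HFS ad lib mice.

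The 9 genes varied together from mouse to mouse. After taking out each group's mean, the 36 pairs of members had correlations of their log2 levels of 0.816 to 0.975, with a median of 0.924, over 71 mice that share the normalization. To rank other genes by likeness, each of 14699 genes with a mean of at least 1 CPM was correlated with the mean of the 9 in the same way. The 5 genes most like the members were Plpp3 (r = 0.987), a lipid phosphatase, Slc1a3 (0.981) and Slc1a2 (0.965), the glutamate transporters GLAST and GLT-1, S1pr1 (0.977), a receptor for sphingosine-1-phosphate, and Pla2g7 (0.975), a secreted phospholipase. Members themselves had correlations of 0.911 (Gjb6) to 0.986 (Gja1) with a mean that contains them. Kcnj16, which forms channels with Kcnj10, had 0.917. The astrocyte marker least like them was Slc7a10, at 0.460. All 7 choroid plexus markers lay between -0.08 and -0.04. These are descriptions over mice of all groups and carry no test.

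A list of 40 further genes of the same functions was read beside the members: other connexins and pannexins, potassium channels and pumps, water channels and anchoring proteins, bicarbonate and proton carriers, and partners of the receptor. In NC ad lib at ORM+1 h, 8 of the 40 were called higher, beside 4.03% of all genes, and 0 lower. The median log2 difference of the 40 was 0.12, which compares with 1.56 for the members and 0 for all genes tested. By role the 8 were 1 of 7 connexins and pannexins, 2 of 11 potassium genes, 4 of 12 water and endfoot genes, 1 of 8 bicarbonate and proton genes and 0 of 2 receptor partners. Among the 8, and named after their values were seen, were Kcnj16 (log2 1.63 ± 0.34, adjusted p = 6.73e-04), Gjb2 (connexin 26), Aqp9, Car2 (a carbonic anhydrase), Dag1 (dystroglycan) and Dtna (dystrobrevin, log2 0.26 ± 0.08, adjusted p = 0.045). In HFS TRF 2 of the 40, Dtna among them (log2 0.32 ± 0.08, adjusted p = 0.0152), were called higher, beside 2.24% of all genes. In HFS ad lib 0 of the 40 were called by edgeR, beside 0.74% of all genes called higher. Without replicates 5 and 6 of HC zt3, 4 of the 40 were called, Aqp9 and Kcnj16 among them, beside 3.43% of all genes in either direction.

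At 12 h after training 3 of the 40 were called in HFS TRF, all higher, beside 2.46% of all genes in either direction. On either of the other diets 0 were called (edgeR). The 3 were Aqp11, a water channel (log2 0.43 ± 0.11, adjusted p = 0.0251), and the pannexins Panx2 (0.53 ± 0.14, adjusted p = 0.0275) and Panx1 (0.42 ± 0.13, adjusted p = 0.0496). None of these 3 went with the members in that comparison, whose estimates were below 0. Between zt3 and zt15, 8 of the 40 were higher in NC ad lib, 7 under HFS TRF and 4 under HFS ad lib, and 0 were lower. The shares of all genes called higher were 5.18%, 5.95% and 3.88% in the same order. Without replicates 5 and 6 of HC zt3 the HFS ad lib counts were 5 higher and 1 lower, beside 10.8% of all genes in either direction. The 1 lower was Agrn, which encodes agrin, a protein of the basement membrane (log2 -0.30 ± 0.10, adjusted p = 0.046).

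Other astrocyte genes moved in the same direction. Of 12 markers outside the 9 members, 12 were higher at ORM+1 h in NC ad lib (median log2 1.29), 9 under HFS TRF (median 1.00) and 0 under HFS ad lib (median 0.52, becoming 11 of 12 and 1.28 without the pair). None of the other cell types had a marker called higher in these 3 comparisons. Among 8 neuron markers the medians lay between -0.18 and -0.03, with Rbfox3 lower in NC ad lib (log2 -0.26 ± 0.07, adjusted p = 0.0162). Among 7 microglia markers they lay between -0.56 and -0.13. The 7 choroid plexus markers had medians of 1.49 and 0.49 in NC and HFS ad lib mice and of -0.70 in HFS TRF mice, with 0 of 7 called by edgeR. Their sum varied widely between mice of a group, in NC ad lib ORM+1 h from 97.4 to 12204 CPM. Whether choroid plexus content bears on the members' differences was not tested. Between zt3 and zt15 12 of 12 astrocyte markers were called higher in NC ad lib, 10 under HFS TRF and 5 under HFS ad lib, the last becoming 11 of 12 without the pair (median 1.45 in place of 0.67). Some markers of other cells were called higher there as well: Gpr17, of oligodendrocyte precursors, in all 3 diets (log2 0.66 to 0.75), the myelin gene Mobp under HFS TRF (0.42) and, under HFS ad lib, the interneuron gene Gad2 (0.28) and 3 of 7 microglia markers, which without the pair were 0 of 8 neuron and 1 of 7 microglia markers. The summed microglia markers of HFS ad lib had a lower median at HC zt15, 74.6 CPM, than at HC zt3, 85.5 CPM. The HC zt15 group holds the 1 mouse at 472 CPM, and no fit without it is given for these markers. The choroid plexus medians were 1.91 for NC ad lib, 0.95 for HFS TRF and -0.30 for HFS ad lib, with 0 of 7 called by edgeR in each.

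**Figure D4:**
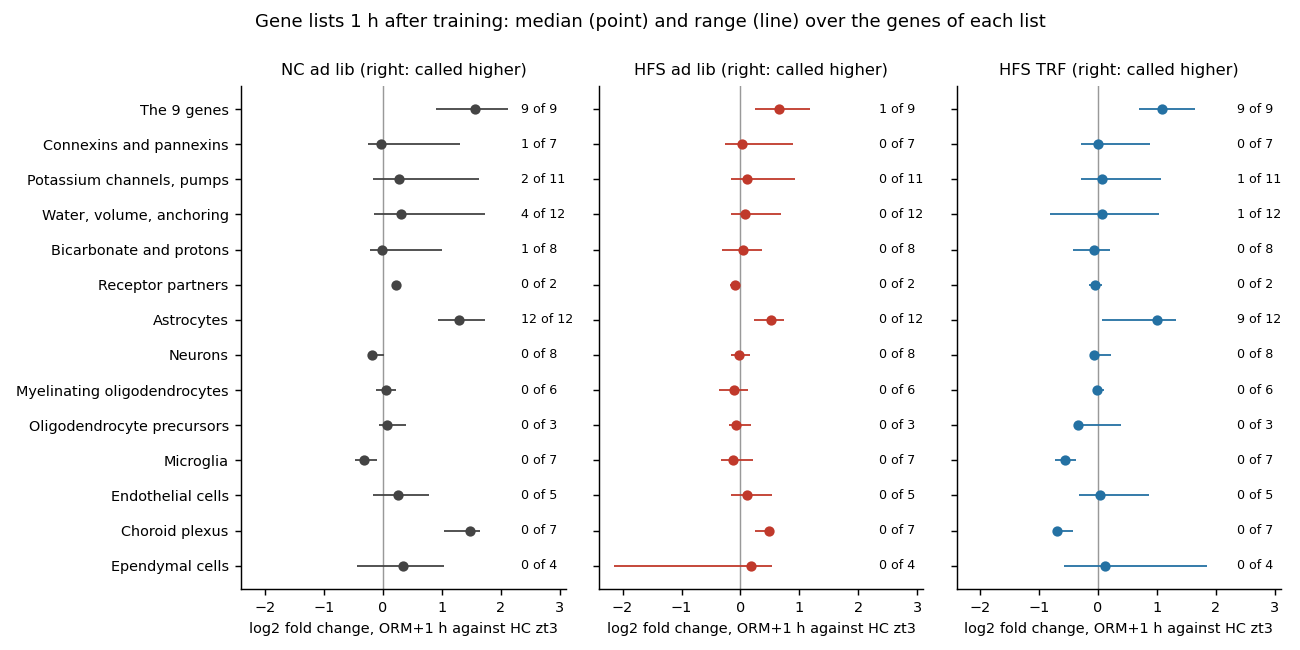
Log2 fold change of ORM+1 h against HC zt3 (horizontal axis) for the 9 genes, the 40 further genes of the same functions by role and the markers of cell types, 1 panel per diet; points are list medians, lines the range over the genes of a list, and the counts at the right are the genes called higher. In NC ad lib the 9 genes (median 1.56), the astrocyte markers (1.29) and the choroid plexus markers (1.49) lie highest, and of the choroid plexus markers 0 of 7 were called.

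How reads were assigned to strands is not given in the sources used here, and 3 members share exon bases with an antisense transcript: Gjb6 over 16.4% of its exon bases with Gm32912, Kcnj10 over 1.55% with Gm57153 and Gja1 over 1.16% with Gm68148. Gm57153 had a mean level of 0.0818 CPM, and the other two are not rows of the count table. Reads of a gene and of its antisense partner cannot be told apart here over the shared bases.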

How the data were processed

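Hippocampal pS6-TRAP mRNA of 71 mice was sequenced from stranded mRNA libraries. The authors deposited raw counts per Ensembl gene (57010 rows). Per the labels, reads were trimmed with Trim Galore 0.6.7 and cutadapt 3.4, aligned with HISAT2 2.2.0 and counted with featureCounts of Subread 2.0.3. The build is GRCm39, with mm9 also listed, and the strand setting and annotation release are not given in the sources used here. Such counts depend on how reads shared between overlapping genes were assigned.

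Genes with at least 10 counts in total (30141) were tested with edgeR 4.0.16 in R 4.3.3: TMM factors, 1 quasi-likelihood fit of all 12 groups without a replicate term, 23 contrasts and Benjamini-Hochberg adjustment over all tested genes at 0.05. edgeR takes the spread from all groups, and p-values measure the spread between mice, which the labels number as separate samples. CPM values use TMM-adjusted library sizes, and those per kb use the exon union of the GENCODE annotation in which 56310 of the rows matched. Log2 levels for correlations had a prior count of 2. DESeq2 1.42.0, other filters and normalizations, replicate blocks, fits of the compared groups alone and fits without single mice were the alternatives. The test was checked on simulated counts.

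The members and lists were chosen with earlier results of these data known. Outside the members, genes named are, per list and comparison, up to 2 that rose and 2 that fell with the smallest adjusted p under 0.05, the 5 most like the members, and those said to be chosen after their values were seen. Some genes that this rule names are not reported here. In no comparison did all same-numbered mice deviate together, so numbers were not treated as pairs.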

Additional observations from a re-analysis of the deposited data

Results flagged for a closer look

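In 3 of the 108 sets of a member's values in 1 group, the lowest or highest mouse was far from the rest by Dixon's test at the 95% level, which chance gives in about 1 of 20 sets. Gjb6 in HFS ad lib ORM+1 h had 1 mouse, replicate 4, at 51.7 CPM, the highest value of this gene in the series, while the other 5 were at 19.2 to 30.0 CPM (gap over range 0.667). In NC ad lib HC zt3, replicate 6 was high for Aqp4, at 22.9 CPM beside 14.6 to 17.5 CPM (0.65), and for Gja1, at 35.9 CPM beside 24.1 to 27.0 CPM (0.75). The pair of high mice in HFS ad lib HC zt3 is not picked up by this test, since each of the pair is close to the other.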

How the results depend on the processing

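Of the counts of members called, 194 stayed within 1.5 times the reported count under the alternatives and 10 moved, all in HFS ad lib at 1 h, HFS TRF at 12 h or HFS ad lib between zt3 and zt15. For HFS ad lib at 1 h (1 of 9 as reported) the count was 7 with a replicate block within condition, 8 without HC zt3 replicates 5 and 6 of that diet, 8 without those numbers in all diets, and 0 with only the groups compared in the fit. The shares of all genes called in either direction were 2.66%, 3.43%, 3.25% and 0.597% in the same order. For HFS ad lib between zt3 and zt15 (2 of 9) it was 1 with total counts in place of TMM, 9 with the block within condition, 9 and 9 without the same mice, and 0 with only the groups compared. All genes were called at 10.7%, 12%, 10.8%, 10.3% and 5.9% in the same order. For HFS TRF at 12 h (0 of 9) it was 1, Aqp4, with only the groups compared, beside 2.22% of all genes. The cause of the changes with the block and with fewer groups was not tested. Leaving out 1 mouse at a time gave 0 to 6 for HFS ad lib at 1 h and 0 to 7 for the same diet between zt3 and zt15, the highest counts being those without replicate 5 of HC zt3. It gave 8 to 9 for HFS TRF at 1 h. Shares of all genes called are not given for these fits without 1 mouse. The other counts stayed as reported when any 1 mouse was left out.

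With 1 replicate block over all groups the counts were 1, 0 and 3 for HFS ad lib at 1 h, HFS TRF at 12 h and HFS ad lib between zt3 and zt15. Beside them, 1.41%, 2.32% and 10.4% of all genes were called in either direction. The numbers do not pair the mice, since in no comparison did every same-numbered pair deviate together. The differences between diets at HC zt3 turned without replicates 5 and 6 of HFS ad lib, to log2 -0.47 to -0.02 for HFS ad lib minus NC ad lib and 0.13 to 0.68 for HFS TRF minus HFS ad lib. With these numbers left out in all 3 diets they were -0.41 to -0.02 and -0.04 to 0.17. Among the comparisons of training and of time of day, the direction of a member's difference turned in those at 12 h alone. There, Kcnj10 in NC ad lib was at log2 0.0074 with the block within condition, and without 1 mouse it ran from -0.16 to 0.067, Aqp4 from -0.23 to 0.11 and Slc4a4 from -0.074 to 0.18. Atp1b2 ran from -0.20 to 0.00093 in HFS ad lib and from -0.18 to 0.026 in HFS TRF, and Kcnj10 in HFS TRF from -0.13 to 0.011. Depth limits little for these genes, whose lowest count was 209; the spread between 5 or 6 mice sets what can be seen.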
